A study of Drosophila melanogaster with 40 samples.

Results

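The binding sites of Zelda were compared with those of RNA polymerase II phosphorylated at serine 5 (Pol II-Ser5P) in wild-type Drosophila melanogaster embryos, and the Zelda sites with Pol II were then set against those without it. A Zelda region was a place where the peaks of both Zelda replicates overlapped by at least 20% of either length, joined into 1 region, and Pol II regions were built in the same way. There were 2680 Zelda regions, drawn from replicate lists of 4843 and 3817 peaks, and 8750 Pol II regions, drawn from lists of 11661 and 11219 peaks. These are 4 of the 14 peak lists of the series, which was designed to ask how the chromatin factors HIRA and dPCIF1 act on early zygotic transcription. Each replicate was a separate batch of hand-selected whole embryos at 0.5 to 1.5 h, precipitated with a mouse antibody against Zelda or a rabbit antibody against the phosphorylated polymerase. All nuclei of the embryo were pooled, so that a Zelda and a Pol II peak at the same place need not come from the same nuclei. The lists give positions only, with no height or read depth. Zelda regions from embryos that lacked maternal dPCIF1 (M-Z+ dPCIF1 mutant) and regions of other wild-type factors, both at 0.5 to 1.5 h, were also set against the Zelda regions.

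Zelda is a zinc finger protein that the mother loads into the egg. It acts as a pioneer factor, binding its motif in closed chromatin and opening it, and the earliest zygotic genes of the fly depend on it. Its motifs are the TAGteam sequences, of which CAGGTAG is the form it binds best. CAGGTA, the part counted here, leaves out other members of the family such as TAGGTAG. Serine 5 of the polymerase tail is phosphorylated as transcription starts, so Pol II-Ser5P marks polymerase that has been engaged near the start of a gene, including polymerase that pauses there.

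To show what such sites look like, windows of 201 bp around the midpoints of 7 Zelda regions are given from the dm6 genome, plus strand, 5′ to 3′, with each CAGGTA or its reverse complement TACCTG in capitals. The regions of Nrt, CG13784 and grnd overlapped Pol II. They were among the 5 Zelda regions with Pol II that held the most CAGGTA in this window. All of their midpoints lay in introns of the named gene. Nrt encodes neurotactin, an adhesion protein, and grnd encodes Grindelwald, a receptor for the fly tumour necrosis factor.
Nrt, chr3L:16773177-16773377: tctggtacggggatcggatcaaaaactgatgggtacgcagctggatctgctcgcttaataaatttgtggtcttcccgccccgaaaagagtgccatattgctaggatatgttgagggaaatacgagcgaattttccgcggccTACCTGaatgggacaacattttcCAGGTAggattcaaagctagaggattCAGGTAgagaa
CG13784, chr2L:7218213-7218413: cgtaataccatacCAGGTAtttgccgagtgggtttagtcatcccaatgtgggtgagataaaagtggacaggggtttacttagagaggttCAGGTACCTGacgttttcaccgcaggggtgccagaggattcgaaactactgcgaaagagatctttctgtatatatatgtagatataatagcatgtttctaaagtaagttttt
grnd, chr2L:18486881-18487081: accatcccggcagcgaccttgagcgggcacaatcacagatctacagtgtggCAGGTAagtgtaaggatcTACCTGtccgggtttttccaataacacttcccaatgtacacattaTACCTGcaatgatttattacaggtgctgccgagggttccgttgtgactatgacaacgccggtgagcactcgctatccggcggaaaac
The windows of bnk, spri and CG15599 come from Zelda regions without Pol II, among the 5 of that class with the most CAGGTA by the same rule. The window of zen2 was added after its values were seen, because zen2 is an early patterning gene with Zelda and no Pol II at its promoter. The bnk window lay just upstream of bnk and inside an intron of mesh, the spri window in an intron of spri, and the windows of CG15599 and zen2 were intergenic. The gene bnk (bottleneck) acts in cellularization, and zen2 is a homeobox gene beside zen in the Antennapedia complex.
bnk, chr3R:31193145-31193345: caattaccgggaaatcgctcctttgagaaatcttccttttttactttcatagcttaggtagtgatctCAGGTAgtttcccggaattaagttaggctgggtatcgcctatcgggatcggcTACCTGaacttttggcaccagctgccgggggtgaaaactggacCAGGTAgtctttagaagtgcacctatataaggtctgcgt
spri, chrX:10493938-10494138: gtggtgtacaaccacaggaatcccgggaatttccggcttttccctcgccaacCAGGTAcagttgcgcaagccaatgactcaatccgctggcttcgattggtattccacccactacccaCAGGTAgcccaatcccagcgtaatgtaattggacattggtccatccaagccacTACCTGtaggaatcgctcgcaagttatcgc
CG15599, chrX:15684565-15684765: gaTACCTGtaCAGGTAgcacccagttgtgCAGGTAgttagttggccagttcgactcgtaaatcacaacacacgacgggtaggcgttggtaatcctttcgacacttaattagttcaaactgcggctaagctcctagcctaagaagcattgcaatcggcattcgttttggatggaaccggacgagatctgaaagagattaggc
zen2, chr3R:6744731-6744931: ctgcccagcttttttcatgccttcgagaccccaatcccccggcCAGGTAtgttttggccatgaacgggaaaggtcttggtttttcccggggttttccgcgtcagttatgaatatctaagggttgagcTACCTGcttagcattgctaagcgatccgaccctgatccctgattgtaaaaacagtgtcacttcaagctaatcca

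Each of these windows held 3 sites, except that of zen2, which held 2. In CG13784, a run of CAGGTACCTG carried a site on each strand that share bases. No Pol II peak of either replicate touched the regions of bnk, spri, CG15599 or zen2. The nearest Pol II region was 19453 bp from the bnk region, 14427 bp from that of spri, 8457 bp from that of CG15599 and 1698 bp from that of zen2. The Nrt, CG13784 and grnd regions lay wholly inside Pol II peaks of both replicates.

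Of the 2680 Zelda regions, 1775 (66.2%) overlapped a Pol II region by 1 bp or more, and 905 (33.8%) did not. Pol II regions covered 10.9% of the 138 Mb of sequence. Coverage is a lower figure than the share of randomly placed regions that would overlap by 1 bp, which was not computed. Among the single peaks, 54.1% of those in Zelda replicate 1 and 61.3% of those in replicate 2 overlapped a Pol II region (57.7% ± 5.05, SD, n = 2). The choice of Pol II replicate mattered less than the choice of Zelda replicate. With Pol II lists 1 and 2, the share was 57.9% and 58.3% for Zelda replicate 1, and it was 64.9% and 65.2% for Zelda replicate 2. Zelda peaks that both Zelda replicates shared had Pol II in 66.5% and 66.1% of cases, while those seen in a single replicate had it in 37.5% and 48.2%. Replicate 1 held more of the unshared peaks, 2068 against 1035.

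**Figure D1:**
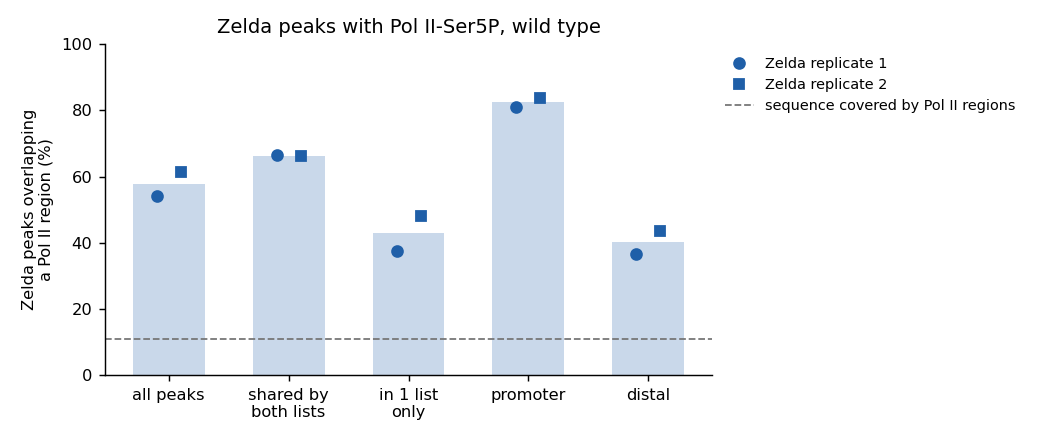
Share of Zelda peaks that overlapped a Pol II-Ser5P region, for all peaks, for peaks shared or not shared by the replicates, and for promoter and distal peaks. Circles and squares are the replicates, bars their mean, and the dashed line is the part of the sequence that Pol II regions cover (10.9%). Peaks counted at an overlap of 1 bp, so randomly placed peaks would exceed this line, and their share was not computed. Promoter peaks had Pol II in 81.0% and 83.8% of cases, and distal peaks in 36.7% and 43.5%.

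Where both were present, the Zelda region mostly lay within the Pol II region. Of the 1775, 1149 (64.7%) lay wholly inside Pol II and 1705 had their midpoint there, while 235 held a whole Pol II region. Pol II regions were wider, so that asking for a reciprocal overlap of 20% between the 2 proteins left 51.4% of the Zelda regions with Pol II. In the other direction, 1530 of the 8750 Pol II regions (17.5%) overlapped Zelda. The median of those 1530 was 1628 bp wide and that of the other 7220 was 1084 bp, and wider regions have more room for any overlap.

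Of the 905 Zelda regions without Pol II, 681 (75.2%) touched no Pol II peak in either list, and 224 touched a peak of a single replicate or a part that the replicates did not share. For the 877 on the chromosome arms, the nearest Pol II region was a median of 7617 bp away (quartiles 2314 and 26410 bp). It was within 1 kb for 108 of them and beyond 20 kb for 264.

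The share with Pol II was alike on the large autosomal arms and lower on the X. It was 68.4% on 2L, 71.0% on 2R, 68.1% on 3L and 66.4% on 3R, and it was 57.4% on the X, where 179 of 312 regions had Pol II. In the single lists, the X had 48.1% and 52.0%, and the 4 large autosomal arms had 54.2% to 56.8% in replicate 1 and 61.5% to 65.8% in replicate 2. Both lists thus gave the lowest arm value for the X. The difference between the X and the autosomes was taken over 2 lists and was not tested. On the Y, none of the 28 Zelda regions had Pol II, which had 1 region in all there. The small chromosome 4 had Pol II at 14 of its 22 Zelda regions.

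Zelda regions as a set were farther from genes than Pol II regions. A promoter was defined as 1 kb to either side of a transcription start site (TSS). In the Zelda lists, 39.4% and 44.0% of peaks touched a promoter (41.7% ± 3.31, SD, n = 2), and in the Pol II lists 58.2% and 58.8% did (58.5% ± 0.442, SD, n = 2). Promoters covered 23.1% of the sequence, a lower figure than the share of randomly placed peaks that would touch one, which was not computed. The median distance from midpoint to TSS was 2245 and 1839 bp for Zelda and 984 and 943 bp for Pol II. The median Zelda peak was 489 and 520 bp wide, and the median Pol II peak 775 and 818 bp. For each of these measures the Zelda and Pol II lists did not overlap, and the exact two-sided permutation test gave p = 0.333, the smallest that 2 lists against 2 can give.

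Presence of Pol II split the Zelda regions by location. Of 1262 Zelda regions at a promoter, 1070 (84.8%) had Pol II, and of 1418 distal regions 705 (49.7%) did. For comparison, 50.1% of all 23732 TSS had a Pol II region within 1 kb. In Zelda replicate 1, 58.9% of peaks with Pol II and 16.3% of those without touched a promoter, and in replicate 2 the values were 60.2% and 18.4%. The difference averaged 42.2 percentage points ± 0.531 (SD over the 2 lists). Pol II-Ser5P is itself found near TSS, so this difference is not independent of how the classes were made. Within both lists the median distance to a TSS was shorter with Pol II, at 830.5 against 5908 bp in replicate 1 and at 767 against 5118 bp in replicate 2. The exact sign-flip permutation test over the 2 lists gave p = 0.5 for each such difference within lists, the smallest p that it can reach.

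**Figure D2:**
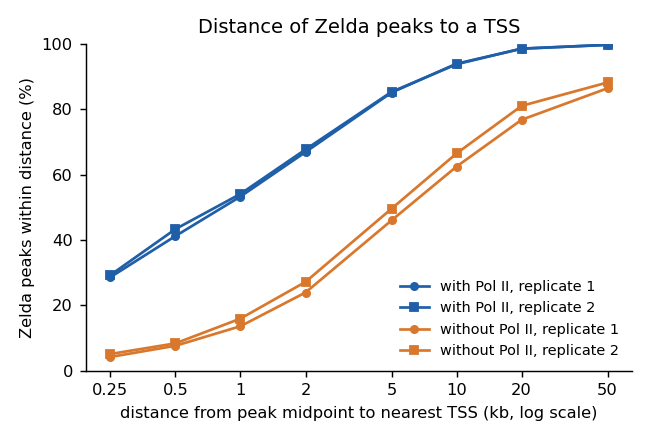
Share of Zelda peaks whose midpoint lay within a given distance of the nearest TSS (x axis, kb, log scale), for peaks with and without Pol II in each replicate. In replicates 1 and 2, 85.1% and 85.3% of peaks with Pol II lay within 5 kb of a TSS, and 46.0% and 49.6% of those without.

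The gene features under the midpoints differed in the same way in both replicates. Midpoints in a 5′ UTR made up 12.1% and 12.5% of the Zelda peaks with Pol II and 0.900% and 0.947% of those without. Intergenic midpoints made up 29.9% and 32.2% with Pol II and 56.6% and 58.6% without it. Introns held 45.7% and 45.4% against 36.5% and 34.8%. Introns were thus the most frequent place for Zelda with Pol II, and intergenic sequence the most frequent place without it.

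Peaks with Pol II were also wider, with medians of 593 and 611 bp against 402 and 425 bp. The promoter difference was present in each of 3 equal groups of Zelda regions by width. Among the narrowest, from 271 to 638 bp, 57.5% of the regions with Pol II and 18.2% of those without touched a promoter, and among the widest, from 1019 bp up, 62.7% and 24.7% did. The share with Pol II itself went from 51.3% in the narrow group to 67.3% in the middle and 80.0% in the wide group.

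Zelda regions without Pol II lay more often in repeats. Sequence marked as repeat by lower case in the genome made up over 50% of the region in 21.6% and 18.6% of peaks without Pol II, and in 3.09% and 3.55% of those with it. Some genes were nearest to several Zelda regions without Pol II, and these differed in repeats. Of the 8 regions nearest to DIP-lambda, 7 were over 50% masked, as were 6 of 7 at Myo81F and all 7 at CR41597, and none of these overlapped Pol II. Of 7 at Cadps, 6 at RYa and 6 at lncRNA:CR46353, also all without Pol II, 1, 2 and none were. Reads that fit several repeat copies were removed by the authors, and the part of mapping in these counts was not tested. Without the regions over 50% masked, 779 of the 905 remained, and 23.6% of them were at promoters.

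The Zelda motif was then counted within 100 bp of each midpoint. CAGGTA on either strand was present in 12.9% and 13.4% of Zelda peaks (13.1% ± 0.352, SD, n = 2) and in 5.92% and 5.92% of Pol II peaks (5.92% ± 0.00097, SD, n = 2). Windows 2 kb to either side held it in 4.97% and 5.55% for Zelda and in 5.38% and 5.15% for Pol II, and 4.63% of all 201 bp windows of the genome did. The Zelda lists were thus enriched for the motif of the protein they are labelled with, at the midpoint and not beside it. The exact permutation test of Zelda against Pol II lists again gave p = 0.333, the smallest possible.

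Over all Zelda sites, the share with a motif near the midpoint did not separate those with Pol II from those without. The window held CAGGTA in 14.0% of peaks with Pol II and 11.6% of those without in replicate 1, and in 13.6% and 13.1% in replicate 2. In the regions called in both replicates the order was turned, with 14.1% of 1775 against 17.0% of 905. The mean difference over the lists, 1.44 percentage points, was close to its SD of 1.34. Over the whole peak the difference was larger and had the same direction in both lists. CAGGTA was anywhere in 33.6% and 34.3% of peaks with Pol II and in 22.0% and 27.0% of those without, and 2 or more sites were in 13.6% and 14.5% against 6.35% and 8.05%. Peaks with Pol II are wider, and per kb of peak the values were 0.695 and 0.716 sites with Pol II and 0.604 and 0.710 without.

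The motif did differ between the classes once promoters and distal sites were taken apart, and in opposite directions. At promoters, CAGGTA was in 12.8% and 11.9% of Zelda peaks with Pol II and in 17.4% and 21.7% of those without. At distal sites it was in 15.7% and 16.0% with Pol II and in 10.4% and 11.1% without. Both replicates had the same direction at each location. Among the regions called in both replicates, 55 of 192 promoter regions without Pol II (28.6%) held CAGGTA, the highest share of the 4 classes, against 135 of 1070 promoter regions with Pol II (12.6%). The longer CAGGTAG was in 14.6% and 6.73% of these same regions. Leaving out peaks over 50% masked kept both directions, with 18.7% and 23.1% at promoters without Pol II and 12.7% and 13.03% at distal sites without it. The difference between locations was not tested beyond these values, since 2 lists allow no p under 0.5.

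**Figure D3:**
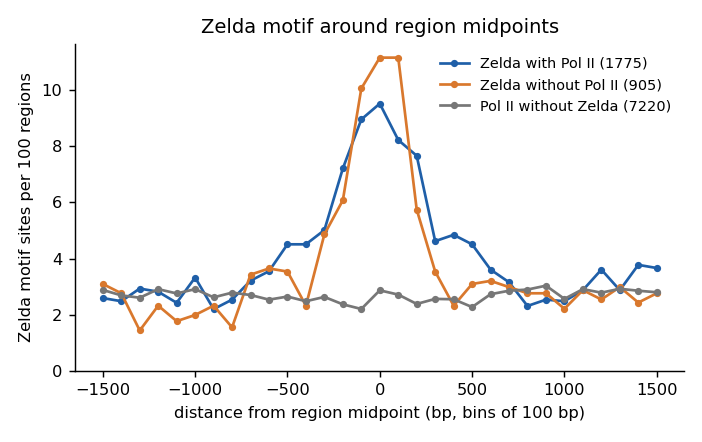
CAGGTA sites on either strand per 100 regions (y axis) by distance from the region midpoint in bins of 100 bp (x axis), for Zelda regions with and without Pol II and Pol II regions without Zelda. The central bin held 9.52 and 11.2 sites per 100 Zelda regions with and without Pol II, and 2.87 per 100 Pol II regions without Zelda, where there was no peak at the centre.

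GAGAG, a sequence bound by another pioneer factor of the early embryo, GAF, was more frequent with Pol II in both replicates. It was in 34.8% and 35.1% of the central windows of Zelda peaks with Pol II and in 24.9% and 24.5% of those without. At promoters it was in 38.0% and 38.3% against 23.5% and 27.2%, and at distal sites in 30.2% and 30.2% against 25.1% and 23.9%. In windows 2 kb away the shares were 24.0% and 23.8% against 21.5% and 21.5%. GAF peaks themselves followed this. GAF regions overlapped 60.9% and 62.6% of Zelda peaks with Pol II and 16.6% and 19.7% of those without. The Zelda and GAF libraries of wild type were set against a shared input sample, so their lists are not fully independent.

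Other chromatin factors profiled at the same stage also differed between the classes. dPCIF1, the fly homologue of a cap methyltransferase, overlapped 49.2% and 50.6% of Zelda peaks with Pol II and 1.67% and 2.17% of those without. Of the 905 Zelda regions without Pol II, 22 overlapped dPCIF1. HIRA, the chaperone that places the histone variant H3.3 into chromatin, overlapped 55.2% and 58.0% with Pol II and 9.19% and 11.7% without. The paper reports that dPCIF1 associates with Pol II-Ser5P, and that most dPCIF1 and HIRA promoter peaks overlap it. Their differences are thus not independent of how the classes were made. Over all Pol II regions, dPCIF1 overlapped 23.6% and HIRA 20.7%. None of GAF, HIRA or dPCIF1 was called at 66.0% of the Zelda regions without Pol II, and all 3 were called at 0.442% of them, against 17.1% and 40.3% of the regions with Pol II.

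These differences were present at promoters and at distal sites. At promoters, dPCIF1 overlapped 65.2% of Zelda peaks with Pol II in both replicates and 2.21% and 2.57% of those without, and at distal sites 26.3% and 28.4% against 1.56% and 2.07%. They were also present in each width group, where dPCIF1 overlapped 49.7%, 50.8% and 62.2% of the narrow, middle and wide regions with Pol II and 2.76%, 2.06% and 2.25% of those without. Accessibility was not part of this comparison.

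**Figure D4:**
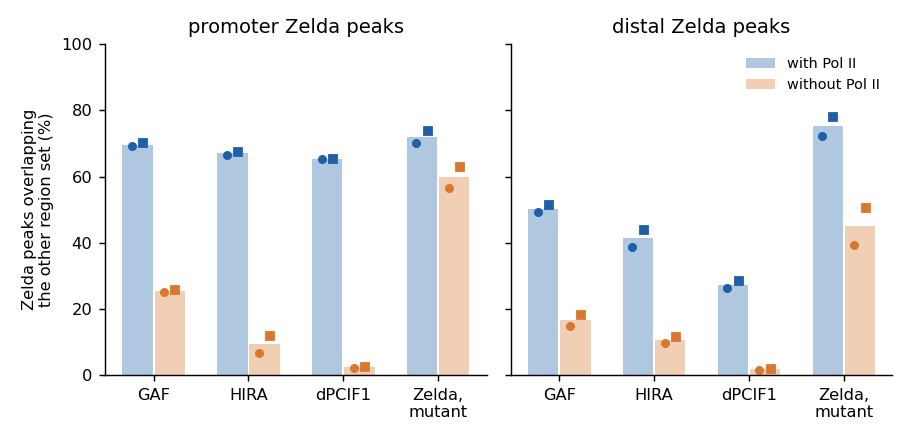
Share of Zelda peaks that overlapped GAF, HIRA or dPCIF1 regions of wild type or Zelda regions of the dPCIF1 maternal mutant, at promoters (left) and at distal sites (right). Bars are means of the replicates, circles are replicate 1 and squares replicate 2, and peaks with Pol II had the higher share in both panels, for each protein and replicate. dPCIF1 at distal peaks without Pol II was lowest, at 1.56% and 2.07%.

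Most Zelda regions were called again in embryos that lacked maternal dPCIF1 (labelled M-Z+ dPCIF1 mutant), more so those with Pol II. A mutant Zelda region overlapped 1557 of the 1775 wild-type regions with Pol II (87.7%) and 656 of the 905 without (72.5%). In the single wild-type lists the shares were 71.1% and 75.6% against 42.2% and 52.9%. At promoters the regions were closer, at 87.0% with Pol II and 83.3% without. In the narrow width group the shares were 68.6% and 59.1%, against 97.9% and 92.7% in the wide group.

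By gene, 1683 of 18315 annotated genes (9.19%) had a Zelda region within 1 kb of a TSS, 9034 (49.3%) had a Pol II region and 1494 (8.16%) had both. Lists of genes with a known role were read against these shares. Of 96 patterning and early zygotic genes from 9 lists, 89 had Zelda at a promoter, 84 had Pol II and 78 had both. Zelda was at all 13 gap and head gap genes, which divide the embryo into broad domains, at all 9 pair-rule genes and at all 8 Hox genes, and each of these genes also had Pol II. Among 9 segment polarity genes, 8 had both, and the exception gsb-n had a peak of Zelda in replicate 1 and of Pol II in replicate 2 alone.

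**Figure D5:**
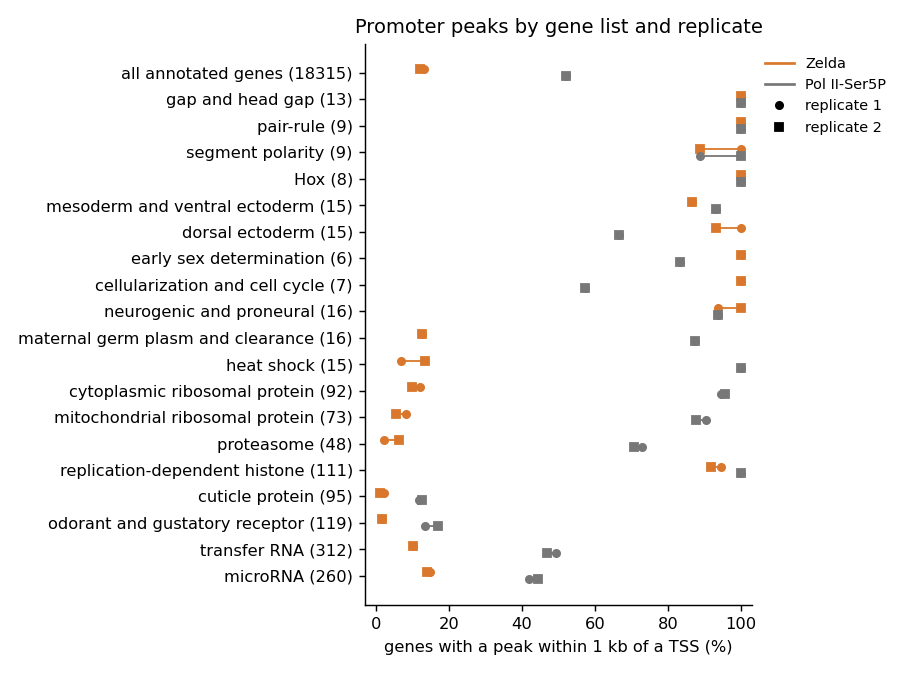
Share of genes with a Zelda or Pol II-Ser5P peak within 1 kb of a TSS (x axis, percent) in each gene list (y axis, number of genes in brackets), by replicate. Patterning and early zygotic lists were high for Zelda, and most of them for Pol II. In both replicates, Pol II was at 66.7% of dorsal ectoderm genes and 57.1% of cellularization and cell cycle genes. Its share over all genes was 52.04% and 51.95%. Heat shock, ribosomal protein and proteasome lists were high for Pol II, with Zelda near or below its share over all genes.

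Several lists had Pol II at a share well above that of all genes and Zelda at a share near or below it. For lists of 15 or 16 genes, a count of 0 genes with Zelda lies close to what the share over all genes gives. No maternal germ plasm or clearance gene had a Zelda region, and 14 of 16 had Pol II, among them osk, nanos, vas and bcd, whose mRNAs the mother lays down in the egg. In pum and twin each Zelda list held a promoter peak, but none of these was shared by the replicates under the 20% rule. All 15 heat shock genes had Pol II and none had a Zelda region within 1 kb of a TSS. Several of the 15 are copies of Hsp70, so the members are not independent, and the part of mapping was not tested. Hsp27 had a Zelda promoter peak in replicate 1 alone, and Hsp68 and Hsf had one in replicate 2 alone. The 3 Zelda regions nearest to heat shock genes, at Hsp70Ba and Hsp70Bbb, all overlapped Pol II. Heat shock genes are the classic case of polymerase that pauses just past the start. Of 92 cytoplasmic ribosomal protein genes, 87 had Pol II and 7 had Zelda, and of 48 proteasome genes, 34 had Pol II and none had Zelda. Late differentiation genes had little of either, with Zelda at 1 and Pol II at 10 of 95 cuticle protein genes, and Zelda at 1 and Pol II at 16 of 119 odorant and gustatory receptor genes. Replication-dependent histone genes had both at 104 of 111, but these are tandem copies of near-identical sequence and count as uncertain. For microRNA genes the shares, 24 with Zelda and 108 with Pol II of 260, were near those of all genes.

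Zelda without Pol II at the promoter was found for 189 genes, 11.2% of those with Zelda, and 140 of them had no Pol II promoter peak in either replicate. Among the patterning and early zygotic genes it was 11 of 89 (12.4%), which is near the share over all genes. That base includes non-coding genes and pseudogenes. Among protein-coding genes alone the share was lower, at 88 of the 1224 with Zelda. Whether the early lists differ from either base was not tested. The 11 are described here for what lay at their promoters. They were wntD, zen, zen2, tsg, scw, C15, sisA, nullo, bnk, slam and ase. By list, 5 belong to the 14 dorsal ectoderm genes with Zelda, 3 to the 7 cellularization and cell cycle genes, 1 each to the mesoderm, sex determination and neurogenic lists, and none to the gap, pair-rule, segment polarity and Hox lists. The lists hold 6 to 16 genes, and whether they differ was not tested.

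All 11 had a Zelda promoter peak in both Zelda lists and no Pol II promoter peak in either Pol II list. The nearest Pol II region was between 1882 bp (zen2) and 26464 bp (nullo) from their TSS, with a median of 17626 bp. The mesoderm gene among them, wntD, encodes a Wnt ligand. In the dorsal ectoderm, zen is the homeobox gene that sets up the amnioserosa, scw encodes a BMP ligand that acts with Dpp, tsg encodes a secreted protein that binds BMP ligands, and C15 is a homeobox gene of the amnioserosa. The nearest Pol II region was 5436 bp from the zen TSS, 23574 bp from that of scw, 17626 bp from that of tsg and 11485 bp from that of C15. In contrast, dpp had 3 Zelda and 2 Pol II regions at its promoters, and tld, tup, pnr, ush, Doc1, Doc2 and Doc3 had both.

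The cellularization genes nullo, bnk and slam build the furrows between nuclei as the first cells form. Their promoters were without Pol II, while Sry-alpha, which acts in the same process, had 1 Zelda and 3 Pol II regions and halo, Z600 and trbl had both as well. sisA, an X-linked element that counts X chromosomes for sex determination, had Zelda over its promoter with 5 CAGGTA sites in the region, and its nearest Pol II region was 2707 bp away. Its target Sxl had 2 regions of each. At ase, a proneural gene of the achaete-scute complex, Zelda was called without Pol II, while ac, sc and l(1)sc in the same complex had both.

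The 11 genes were short. Their median span was 1147 bp (from 779 to 12829 bp) against 3724 bp for the 78 with both, and 8 of the 11 had a single exon against 22 of 78 (28.2%). Over all protein-coding genes, those with Zelda only were also shorter than those with both. The 88 with Zelda only spanned a median of 1716 bp and 37.5% had a single exon, the 1136 with both spanned 5233 bp and 19.1% had a single exon, the 6319 with Pol II only spanned 2473 bp and 10.7% had a single exon, and the 6438 with neither spanned 1749 bp and 21.2% had a single exon. The median span of genes with Zelda only was thus like that of genes with neither protein, and their share of single-exon genes was higher. A gene with several TSS has more places for a Pol II region to be counted, and 70.5% of the protein-coding genes with Zelda only but 53.4% of those with both had 1 annotated TSS. Among genes with 1 TSS, 31 of 62 with Zelda only (50.0%), 205 of 607 with both (33.8%) and 1301 of 5288 with neither (24.6%) had a single exon, and the median spans were 1178, 2086 and 1527 bp.

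The promoter regions of the 11 differed from those of the 78 in the other proteins too. GAF overlapped 2 of the 11 (C15 and ase) and 73 of the 78, HIRA none and 62, and dPCIF1 none and 65. These counts are by gene, and some of the 78 had several Zelda promoter regions, with more room for an overlap. All promoter Zelda regions were split in the same direction. Without and with Pol II, GAF overlapped 30.2% and 74.8% of them, HIRA 11.5% and 74.2%, and dPCIF1 2.08% and 70.5%. CAGGTA was near the midpoint in 5 of the 11 (45.5%) and 15 of the 78 (19.2%), against 28.65% and 12.62% of all promoter Zelda regions without and with Pol II. CAGGTA was anywhere in the region in 9 of 11 and 50 of 78. In the dPCIF1 maternal mutant, 10 of the 11 and 77 of the 78 were called again, ase being the exception among the 11.

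The Zelda regions nearest to a gene could differ in Pol II from its promoter. Over all regions, promoter and distal, 11 of the 32 nearest to the 8 Hox genes overlapped Pol II, against 66.2% of all Zelda regions. Of the 19 that were distal, 2 did (10.5%), against 49.7% of all distal Zelda regions, although each of the 8 Hox genes had both proteins at a promoter. Antp had 1 distal region with Pol II and 5 without, abd-A none with and 5 without, and lncRNA:iab8, in the bithorax complex between abd-A and Abd-B, 3 with and 6 without. By contrast, all 7 distal regions nearest to the pair-rule gene opa and all 6 nearest to the gap gene Kr overlapped Pol II, as did 9 of 10 at hth, a homeobox gene whose product is a partner of Hox proteins. Among the other gap genes, tll had no distal region with Pol II and 4 without, and kni 1 with and 3 without. These genes were picked from the lists and from the genes with most nearest regions, and the differences between them were not tested.

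The 5 widest Zelda regions of each class included some near patterning genes and others that were not. Some were joined from several separate peaks of 1 replicate, as at lncRNA:CR45726 in Zelda replicate 1 and at slp1 and nht in replicate 2. With Pol II, the 2 widest, of 8644 and 7613 bp, were nearest to lncRNA:CR45726 and CG42807, and the fifth, of 6121 bp, to CG14506. Pol II peaks of replicates 1 and 2 overlapped 1240 and 976 bp of the first and 6735 and 6132 bp of the second. They overlapped 1484 and 1693 bp of the fifth. A region of 6227 bp ran from upstream of slp1 over its TSS, and Pol II peaks overlapped 1121 and 1094 bp of it. A region of 6274 bp spanned part of the Enhancer of split complex at E(spl)m4-BFM, where Pol II covered all of it. Without Pol II, the widest was a region of 4709 bp nearest to nht, 4981 bp from the next Pol II region, and those nearest to lncRNA:CR44310 and lncRNA:CR45127 were 2878 and 2726 bp wide. The region nearest to lncRNA:CR45127 touched Pol II by 528 bp in replicate 2 alone. A region of 3623 bp in an intron of ths, which encodes a fibroblast growth factor of the mesoderm, touched Pol II by 421 bp in replicate 2 alone, and a region of 3614 bp lay 9834 bp from the TSS of the pair-rule gene hry (hairy). The Zelda regions without Pol II closest to a TSS included those at CG15233, Pgant2 and SNCF, with midpoints 7, 16 and 22 bp from it. SNCF, an early zygotic gene, held 3 CAGGTA near the midpoint, and a Pol II peak in replicate 1 alone overlapped its region by 789 bp.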

How the data were processed

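Chromatin immunoprecipitation and sequencing was analysed from 2 wild-type Zelda and 2 wild-type Pol II-Ser5P samples, grouped by their titles. Per the methods and the labels, the authors trimmed reads (Trimmomatic 0.39), mapped them to dm6 (Bowtie2 2.2.5), kept uniquely mapped reads of quality 30 or more (SAMtools 1.18) and called peaks replicate by replicate (MACS2 2.2.7.1, q-value 0.01). The deposited lists hold 3 columns per peak (chromosome, start, end) and no height, summit or q-value, and their depth is unknown, so that a peak says only that a threshold was passed, and a deeper library can pass it at more places. Precision is given by the spread of the 2 lists.

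Consensus regions, overlaps, annotation (Ensembl 115 of the FlyBase genes, without transposable elements) and motif counts were computed with Python 3.11.15 and numpy 2.4.6. Zelda was called with Pol II at an overlap of 1 bp. Motif windows lay 100 bp to either side of midpoints, with control windows 2 kb away. Peak sets were compared by exact permutation over lists (2 against 2) and by exact sign flips within the Zelda lists, checked on simulated data. Gene symbols were matched to the annotation, through RefSeq synonyms where needed. The members and the gene lists were chosen with earlier results of these data known. Named were genes of the lists, the 5 widest regions and the 5 closest to a TSS of each class, and the 5 with most CAGGTA outside UTRs and outside 2R. The split of the other proteins by promoter and distal peaks, the gene spans, the distal and masked counts by nearest gene and the zen2 window were added after values were seen. Alternatives were other consensus and overlap rules, widths, promoter sizes, motif forms, left-out lists and a replicate block. The other lists of wild type (GAF, HIRA, dPCIF1) and of Zelda in the mutant were used as consensus regions. Inputs were not analysed here.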

Additional observations from a re-analysis of the deposited data

How the results depend on the processing

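The share of Zelda regions with Pol II (66.2%) was 58.5% with a reciprocal overlap of 50% between replicates, 60.9% for regions called in either replicate, 51.4% with a reciprocal overlap of 20% between the proteins, and 74.6% when a peak of either Pol II replicate counted. Without 1 list at a time it was between 54.1% and 70.9%. The share of Pol II regions with Zelda (17.5%) was 15.8%, 23.2% and 15.3% under the first 3 of these, 12.5% when the midpoint had to lie in a Zelda region, 13.5% with peaks of at least 500 bp, and between 14.7% and 23.9% without 1 list at a time. The promoter, width and distance differences kept their direction under every alternative run, and some moved by over 1.5 times. Between Zelda sites with and without Pol II, a reciprocal overlap of 20% between the proteins left 21.8 of 42.2 percentage points at promoters and -1812 of -4714 bp in distance, and made 298.5 of 188.5 bp in width. The distance difference was -2842 bp with a 50% consensus, -2648 bp in the wide group and -289.8 bp within promoters, and the width difference was 101.5 bp without GAF sites. The value with a 50% consensus was taken over consensus regions and not over lists. In the consensus regions of the main rule, the median distances with and without Pol II were 847 and 4605 bp. The CAGGTA difference between Zelda and Pol II lists (7.20 points) was 3.92 anywhere in the peak, 11.5 within 250 bp and 4.65 for CAGGTAG.

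The difference in CAGGTA between Zelda sites with and without Pol II (1.44 percentage points) turned to -3.10 with a consensus by 1 bp and -2.97 with one by 50%, both taken over consensus regions and not over lists. It was -0.953 with peaks of at least 500 bp, -1.497 and -0.447 in the middle and wide groups by width, -7.21 at promoters, and -0.276 without regions over 50% masked, an alternative chosen after seeing the data. It was 9.46 anywhere in the peak, 5.08 at distal sites, 2.54 within 250 bp and 2.42 without GAF sites. The cause was not tested. Without 1 list at a time it was between 0.495 and 2.39.

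The replicate numbers do not pair the samples: the deviations of same-numbered lists had a correlation of -0.00858 over 14844 merged regions. With a replicate block, the promoter, width and CAGGTA differences between Zelda and Pol II lists stayed at -16.8 percentage points, -292 bp and 7.20 percentage points, and the smallest p was 0.5. With 2 lists a group no result could pass a threshold of 0.05.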
